A study of Mus musculus with 52 samples.

Results

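The cell cycle genes described here are 40 protein-coding mouse genes, of 56783 distinct gene identifiers in the deposited expression tables. They were taken by gene name, and all 40 were found in each of the 4 tables. By their textbook role they were divided into 14 genes of DNA replication and the entry into S phase (Ccne1, Ccne2, E2f1, Mcm2 to Mcm7, Pcna, Rrm1, Rrm2, Tyms and Tk1) and 26 genes of the G2 phase and mitosis (among them Mki67, Top2a, Cdk1, Ccna2, Ccnb1, Ccnb2, Plk1, Aurka, Aurkb and Cenpf).

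A dividing cell passes from G1 through DNA synthesis in S phase and G2 into mitosis. Cyclin E and the E2F factors open S phase, when the MCM helicase, the sliding clamp PCNA and the enzymes that make deoxynucleotides are needed. The genes of mitosis (cyclin A and B with their kinase CDK1, the Polo and Aurora kinases, kinesins, centromere proteins and the ubiquitin ligase that ends mitosis) are transcribed later, mostly through the MuvB complex with B-MYB and FOXM1. In resting cells MuvB joins the DREAM repressor, which acts through a short promoter element called CHR (cell cycle genes homology region). E2F-bound promoters mostly serve the replication genes. In the adult brain few cells divide, chiefly microglia, oligodendrocyte precursors and the progenitors of the neurogenic niches, whereas astrocytes grown in dishes proliferate.

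The promoters of 6 members are shown because replication and mitosis members that fell together in 1 comparison below differ in these short elements. They belong to the 3 replication and 3 mitosis genes with the smallest p under palmitic acid in Apoe knockout astrocytes that have a RefSeq promoter window, apart from 1 gene for which no sequence is shown. Each runs 5′ to 3′ on the gene's own strand, from 250 bases before to 50 bases after the RefSeq start site (build GRCm38.p6). Capitals mark matches, on either strand, to TTTGAA (the CHR element), to CCAAT (the NF-Y box) or to an E2F-like motif (GCGGGAA, GCGCCAAA or TTGGCGC, of which the last overlaps the reverse complement of the one before it).
Mcm6 promoter, chr1:128359656-128359955, minus strand: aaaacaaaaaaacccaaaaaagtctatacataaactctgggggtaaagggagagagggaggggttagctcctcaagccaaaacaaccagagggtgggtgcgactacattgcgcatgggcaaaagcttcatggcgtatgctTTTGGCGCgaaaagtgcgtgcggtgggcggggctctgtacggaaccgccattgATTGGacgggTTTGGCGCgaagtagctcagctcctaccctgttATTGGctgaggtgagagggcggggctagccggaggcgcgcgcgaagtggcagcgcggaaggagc
Rrm1 promoter, chr7:102441445-102441744, plus strand: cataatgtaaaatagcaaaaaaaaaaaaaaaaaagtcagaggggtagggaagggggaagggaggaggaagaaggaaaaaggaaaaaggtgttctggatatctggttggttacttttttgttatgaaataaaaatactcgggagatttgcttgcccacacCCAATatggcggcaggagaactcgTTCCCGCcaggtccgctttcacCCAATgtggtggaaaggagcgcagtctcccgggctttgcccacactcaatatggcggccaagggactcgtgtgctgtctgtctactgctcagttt
Rrm2 promoter, chr12:24708004-24708303, plus strand: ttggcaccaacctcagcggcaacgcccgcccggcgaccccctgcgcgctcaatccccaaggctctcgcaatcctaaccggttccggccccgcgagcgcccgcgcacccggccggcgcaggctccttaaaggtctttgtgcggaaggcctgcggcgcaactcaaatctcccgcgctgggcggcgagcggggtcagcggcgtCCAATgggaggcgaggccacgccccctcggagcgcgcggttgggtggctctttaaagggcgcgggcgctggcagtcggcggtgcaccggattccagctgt
Ccnb2 promoter, chr9:70421505-70421804, minus strand: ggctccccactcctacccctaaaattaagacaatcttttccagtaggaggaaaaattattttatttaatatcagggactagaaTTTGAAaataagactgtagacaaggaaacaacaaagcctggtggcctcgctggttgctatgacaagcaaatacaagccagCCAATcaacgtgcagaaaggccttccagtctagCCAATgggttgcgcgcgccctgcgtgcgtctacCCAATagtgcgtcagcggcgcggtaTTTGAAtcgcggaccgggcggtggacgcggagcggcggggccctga
Birc5 promoter, chr11:117848987-117849286, plus strand: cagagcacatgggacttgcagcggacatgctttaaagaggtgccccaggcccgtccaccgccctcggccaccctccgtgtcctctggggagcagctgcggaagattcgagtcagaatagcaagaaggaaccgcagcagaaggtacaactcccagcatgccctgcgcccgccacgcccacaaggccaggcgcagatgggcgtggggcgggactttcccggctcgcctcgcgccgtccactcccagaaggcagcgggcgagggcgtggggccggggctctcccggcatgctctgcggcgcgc
Bub1b promoter, chr2:118597961-118598260, plus strand: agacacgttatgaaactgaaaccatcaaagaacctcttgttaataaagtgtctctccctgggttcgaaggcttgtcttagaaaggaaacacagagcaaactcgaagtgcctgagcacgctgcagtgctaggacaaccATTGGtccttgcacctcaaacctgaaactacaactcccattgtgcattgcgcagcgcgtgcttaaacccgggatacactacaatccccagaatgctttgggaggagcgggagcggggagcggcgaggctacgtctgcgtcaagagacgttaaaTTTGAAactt
Mcm6 encodes a subunit of the replicative helicase, and its window holds 2 E2F-like stretches of TTTGGCGC. Rrm1 and Rrm2 encode the large and small subunits of ribonucleotide reductase, which makes the precursors of DNA. Ccnb2 encodes a mitotic cyclin, and its window holds TTTGAA at 2 places and CCAAT at 3. Bub1b encodes the spindle checkpoint kinase BUBR1, and its TTTGAA lies just after the start site. Birc5 encodes survivin of the chromosomal passenger complex, and none of these letters is in its window. RefSeq windows were matched for 33 of the 40 members. TTTGAA was in 15 of the 21 mitosis windows (71.4%) and in 1 of the 12 replication windows (8.33%, Mcm2), against 20.2% of the 27025 windows of all genes. CCAAT was in 18 of 21 mitosis and 8 of 12 replication windows, against 41.1% of all windows. An E2F-like motif was in 5 of 12 replication and 3 of 21 mitosis windows, against 7.79% of all windows. These matches describe letters in a fixed window and not bound sites.

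The study used C57BL/6 mice and holds 52 RNA libraries, 25 of brain and 27 of primary astrocytes. Brain came from a KA-induced TLE model in a first cohort (3 untreated, 3 KA libraries), a CNO-induced epileptic model (3 untreated, 3 CNO) and another KA cohort, called the second here, with 3 untreated and 4 KA libraries beside 3 of Apoe knockout and 3 of A2aR knockdown mice given KA. Astrocytes, with 3 libraries a group, were wild type or Apoe knockout, and each genotype was left untreated or given neuronal conditional medium, oleic acid (a monounsaturated fatty acid) or palmitic acid (a saturated one). Wild-type astrocytes were also given conditional medium of Apoe knockout neurons. Apoe encodes the main lipid carrier protein that astrocytes secrete. The titles of the neuron medium groups carry the letters KA, and the titles of 1 untreated and 1 palmitic acid knockout library carry the word mix, which the labels do not explain. Doses, times, brain region, age and sex, the way A2aR was knocked down and how the knockout was made were not stated in the labels. Nor do the labels tell whether the libraries of 1 group are different mice or dishes; a p-value here measures the spread among libraries, which may be technical.

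Values are TPM, shares of all transcripts of a library, which are scaled per transcript length and may be compared between genes of a library. The tables were normalized separately, so tests were made within a table only. The first KA, CNO and astrocyte tables hold TPM with unknown depth, while the second KA cohort also has read counts, 68760648 to 76643829 per library. Differences are on the log2(TPM + 1) scale with their standard error, which understates changes of low genes, except in the second KA cohort, where they are log2 fold changes of counts. A gene is said to have risen or fallen where the Benjamini-Hochberg adjusted p over all genes tested was under 0.05, with limma for TPM and edgeR's quasi-likelihood test for counts. Several libraries stand apart or carry other differences. Untreated library 3 of the first KA cohort has lower values for long than for short transcripts, relative to each gene's mean over its table. The median log2 deviation of long minus that of short transcripts was -1.45, against 0.30 and 0.35 in the others of its group. In the second KA cohort Xist was 122 to 145 TPM in the untreated and at most 0.31 in all other libraries, so that the sex of the animals and the treatment cannot be told apart there. Apoe was 4234 to 5024 TPM in untreated wild-type astrocytes, 40.4 to 47.1 in untreated knockout astrocytes and 5.36 to 7.66 in knockout astrocytes with palmitic acid.

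Brain and astrocytes held these genes at very different levels. The 26 mitosis genes summed to 22.1 to 49.3 TPM in all brain libraries other than the KA libraries of the first cohort (42.8 to 60.7) and the CNO libraries (64.4 to 109). In astrocytes they summed to 1212 to 1265 TPM in untreated wild-type and 1784 to 1793 in untreated knockout libraries. The 14 replication genes summed to 122 to 182 TPM in all brain libraries, and Pcna alone, the sliding clamp, made up 46.5 to 80.0 TPM of it. In untreated wild-type astrocytes Pcna was again the member with the highest level (226 to 235 TPM). Rrm2 (124 to 128 TPM), Cdk1 (118 to 132 TPM) and Top2a (114 to 129 TPM) came next, and these 3 overlapped. The lowest levels there were those of Cenpf (6.94 to 11.8 TPM), Cenpe (7.27 to 13 TPM) and Ccne1 (8.56 to 9.97 TPM), which also overlapped. In bulk samples, fewer cells of a type and less RNA per cell cannot be told apart.

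**Figure D1:**
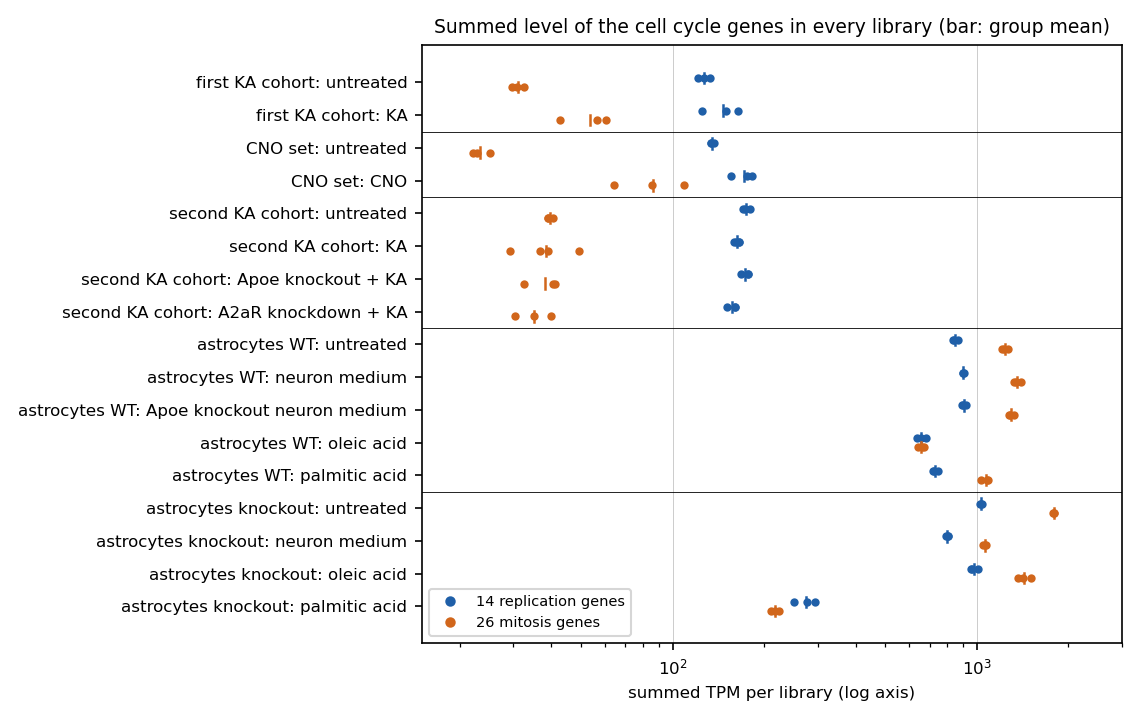
Summed TPM of the 14 replication (blue) and 26 mitosis (orange) genes in each of the 52 libraries, by group, on a log axis; each point is 1 library and the bar is the group mean, and the 4 tables were normalized separately. The mitosis sum lies below the replication sum in every brain library and above it in most astrocyte libraries; it comes close to it with oleic acid in wild-type astrocytes and drops below it with palmitic acid in knockout astrocytes.

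In CNO brain, cell cycle genes of both kinds were higher than in untreated brain, and the difference lay mainly in the mitosis genes. The summed mitosis level was 64.4 to 109 TPM in CNO and 22.1 to 25.2 in untreated libraries, and the summed replication level was 155 to 182 against 133 to 137. The mitosis sum was thus 0.415 to 0.599 of the replication sum in CNO brain and 0.161 to 0.189 of it in untreated brain. Over all 40 members the median difference was 0.85 (0.94 for mitosis, 0.39 for replication), where that of all genes tested was 0.04. Groups did not overlap, with CNO higher, for 24 mitosis and 9 replication members, tested or not, and for 15.6% of the genes tested. Of these members, 10 mitosis genes and 1 replication gene passed the filter on low values only through the CNO libraries. For them the lack of overlap was fixed beforehand. Bub1, Cenpf and Melk are among the 24 and were not tested. By the test 13 mitosis and 3 replication members rose and none fell (limma, Benjamini-Hochberg), where 3.46% of the 15453 genes tested rose. Of these 16, however, 9 (8 mitosis genes and Tk1) passed the filter on low values only through the CNO libraries in which they are high, so that they had to differ, and the count is given as a description. Of the members that passed the filter in other ways, 5 mitosis and 2 replication genes rose. With no filter 1 member passed, Cdk1.

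Among the mitosis genes, the largest differences were those of Ube2c and Cdk1. Cdk1, the kinase that drives entry into mitosis, was 9.0, 6.86 and 12.5 TPM in CNO libraries 1 to 3 and 1.5, 2.13 and 0.99 in untreated libraries. It rose by 2.03 ± 0.25 (limma adjusted p = 0.00662). Ube2c, the ubiquitin-conjugating enzyme of the anaphase-promoting complex, was 4.26, 7.43 and 11.4 TPM against 0.58, 0.85 and 0.77. For Cdk1 the lowest CNO library was thus several times the highest untreated library. Ube2c passed the filter only through the CNO libraries, so that its groups could not overlap. Ccnb2 was 2.41, 3.5 and 4.96 TPM against 0.22, 0.70 and 0.22, and rose by 1.73 ± 0.26. Ccnb1, the other B-type cyclin, was 1.88, 2.65 and 3.28 TPM against 0.67, 0.29 and 0.19, and rose by 1.38 ± 0.23. Ccna2, the cyclin of S and G2 phase, was 2.66, 3.28 and 4.06 TPM against 0.45, 0.95 and 0.73, and rose by 1.34 ± 0.20. These 3 cyclins passed the filter only through the CNO libraries, so that their groups could not overlap. For each of them CNO library 3 had the highest and CNO library 1 the lowest treated value. Top2a, the topoisomerase that untangles sister chromatids, was 3.87, 6.56 and 8.9 TPM against 1.18, 1.16 and 1.34, and rose by 1.68 ± 0.26. Birc5 was 3.11, 5.33 and 7.3 TPM against 1.12, 1.16 and 0.76, and rose by 1.58 ± 0.27. Mki67, the gene of the proliferation marker Ki-67, was 1.37, 2.1 and 2.64 TPM against 0.29, 0.26 and 0.39, and rose by 1.19 ± 0.21. The other mitosis genes that rose were Cdc20, Plk1, Tpx2, Kif20a and Kif11, by 1.22, 1.10, 0.96, 0.91 and 0.89. Mki67, Plk1, Kif20a and Kif11 also passed the filter only through the CNO libraries, so that their groups could not overlap. CNO library 3 was the highest of the 3 CNO libraries for 21 of the 26 mitosis genes, and CNO library 1 the lowest for 19.

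Of the replication genes, Rrm2, Tk1 and Mcm5 rose. Rrm2 was 3.84, 3.88 and 5.12 TPM in CNO and 1.68, 1.44 and 1.13 in untreated libraries, and rose by 1.13 ± 0.18 (limma adjusted p = 0.0156). Tk1, thymidine kinase 1, was 2.51, 2.83 and 4.82 TPM against 0.37, 0.19 and 0.98, and rose by 1.53 ± 0.27. Mcm5, a subunit of the MCM helicase, was 5.86, 6.35 and 6.27 TPM against 2.9, 4.0 and 3.29, and rose by 0.71 ± 0.15. Rrm2 and Mcm5 did not overlap between the groups. Tk1 could not overlap, as it passed the filter only through the CNO libraries. Mcm2 was 4.98, 4.8 and 4.9 TPM against 2.97, 3.52 and 3.65 (difference 0.43 ± 0.14, not past the threshold), and Pcna was 57.4, 64.1 and 71.6 TPM against 52.6, 55.2 and 51.7 (difference 0.27 ± 0.10, not past). Ccne1, cyclin E1, which starts S phase with CDK2, was 15.3, 14.2 and 13.7 TPM against 16.6, 14.4 and 15.4. Its groups overlapped, with a difference of -0.09 ± 0.11, and that of E2f1 was -0.04 ± 0.15.

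**Figure D2:**
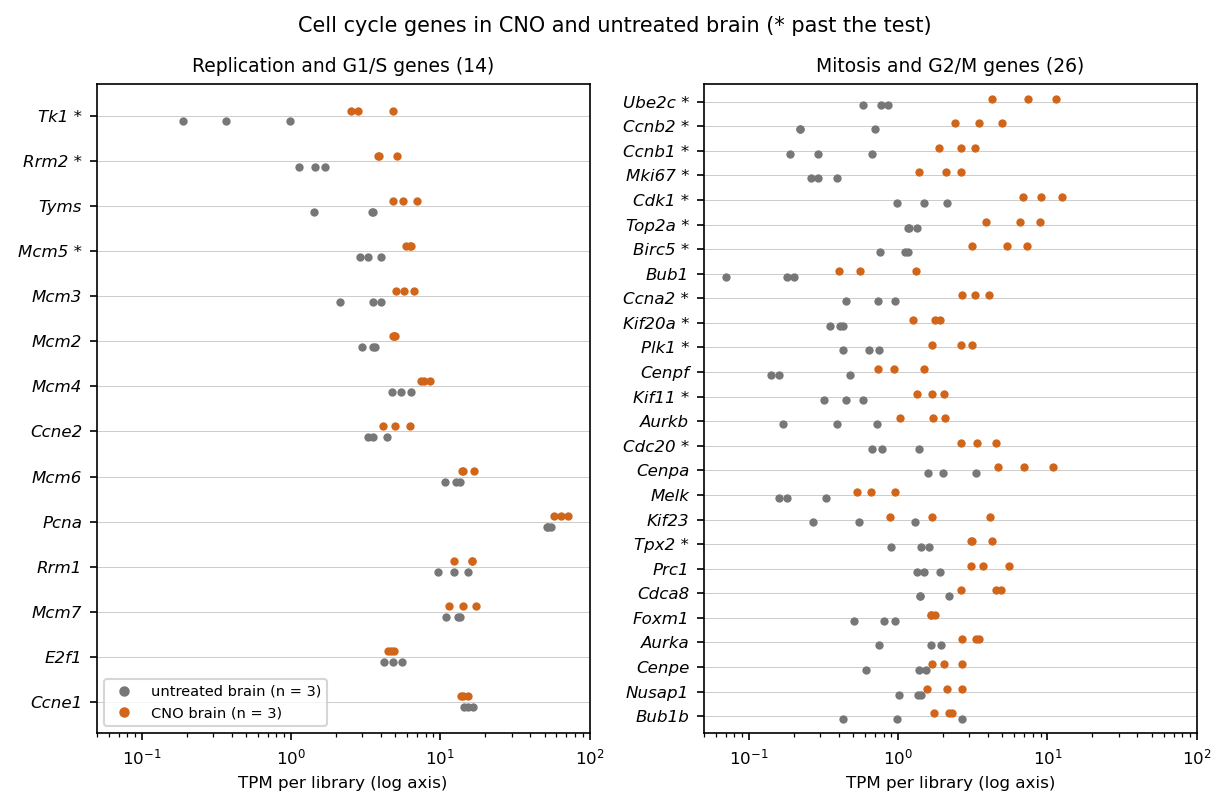
TPM on a log axis of each replication gene (left) and mitosis gene (right) in the 3 untreated (grey) and 3 CNO (orange) brain libraries, 1 point per library; genes are ordered by their ratio of means and stars mark those past the test. CNO points lie to the right of the untreated points without overlap for 24 of the 26 mitosis and 9 of the 14 replication genes, while those of Ccne1 and E2f1 overlap. For 11 of these genes the filter on low values fixed this, as they passed it only through the CNO libraries.

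The count of genes that rose depended on the filter and on single libraries. Of the 37 members tested, 11 passed the filter (1 TPM in 3 libraries) only through the CNO libraries: Tk1, Mki67, Ccna2, Ccnb1, Ccnb2, Ube2c, Kif11, Kif20a, Plk1, Aurkb and Foxm1. The other 3 members (Bub1, Cenpf and Melk) did not pass it, and were lower than 1 TPM in at least 1 CNO library. With no filter the members other than Cdk1 that are given above library by library as risen had limma adjusted p from 0.055 to 0.144. Leaving out 1 library at a time gave 1 to 8: 1 without CNO library 2 or 3, 8 without CNO library 1, and 8, 6 and 3 without untreated library 1, 2 and 3. All of these were higher in CNO. Leaving out a CNO library also reduced the members tested to 25 or 26, since the filter asks for 3 libraries.

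The rest of the cell cycle program in CNO brain was read from 4 further lists, beside the 3.46% of all genes tested that rose. Which of their genes passed the filter only through the CNO libraries was not checked, so that their counts are given as a description. Of 32 other mitosis genes 21 were tested and 3 rose (Pbk, Ckap2l and Cdca3, by 1.43, 0.99 and 1.00). Over all 32, tested or not, 31 had a higher mean and 23 did not overlap, with CNO higher. Of the genes tested, 15.6% did not overlap in that direction. Of 28 other replication genes 2 rose, Uhrf1 (which reads hemimethylated DNA) by 1.22 and Gmnn (geminin, the brake on relicensing) by 0.65. None of 11 D-type cyclins, G1 kinases and E2F or Myb regulators tested passed with limma, with 4 at an unadjusted p under 0.05. Of 15 inhibitors and brakes tested Cdkn2c, the CDK4 and CDK6 inhibitor p18, rose (6.3 ± 0.405 against 3.28 ± 0.342 TPM, difference 0.77 ± 0.14, mean ± SD with n = 3). Markers of several cell types moved with these genes. All 12 microglia markers rose and their sum was 1435 to 1804 TPM in CNO against 553 to 638 in untreated brain. The 10 astrocyte markers summed to 4154 to 4311 TPM against 1952 to 2217, with 4 of them up. The 12 leukocyte markers summed to 17.0 to 33.4 against 2.38 to 7.92, with 1 of 4 tested up. The sums of the 10 progenitor and immature neuron markers, 1059 to 1214 and 977 to 1113, overlapped, and 1 of 9 tested rose. Of these 10 markers 5 had a higher and 5 a lower mean in CNO. Their median difference was 0.01, where that of all genes tested was 0.04. The part of these cell types in the result was not tested.

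In the first KA cohort, most cell cycle genes had higher means with KA but none passed the test. None of the 28 members tested rose or fell with limma (smallest adjusted p = 0.227, for Tpx2, a spindle assembly factor), where 0.183% of all 15331 genes passed. There were 4 members, all mitosis genes, that had an unadjusted p under 0.05, as did 13.5% of all genes. The mean was higher with KA for 36 of 40 members. Over the 40, tested or not, the groups did not overlap for 11 mitosis and 4 replication members. Of the 15331 genes tested, 22.7% did not overlap in that direction. The mitosis sum was 42.8 to 60.7 TPM with KA and 29.6 to 32.6 without, whereas the replication sums, 125 to 165 and 122 to 133, overlapped. The median difference was 0.45 over the 40 members and 0.25 over all genes. Scaling by median ratios moved the median of all genes by -0.21, to 0.04, and that of the tested members to 0.31. No member passed when any 1 library was left out, untreated library 3 included.

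Cdk1 was 8.17, 4.62 and 2.21 TPM in KA libraries 1 to 3 and 1.68, 2.23 and 2.51 in the untreated ones, so that KA library 1 was high and KA library 3 lay among the untreated. Mki67 was 1.28, 1.51 and 0.84 TPM against 0.56, 0.71 and 0.22, without overlap. Top2a was 3.51, 5.16 and 1.93 TPM against 2.41, 1.85 and 2.04, and its groups overlapped. Ccna2 was 2.37, 2.12 and 1.39 TPM against 0.93, 1.39 and 0.82, so that its groups met at 1 value. Cdc20, the activator of the anaphase-promoting complex, was 1.95, 1.97 and 1.65 TPM against 1.12, 1.1 and 1.09, the difference being 0.44 ± 0.18 (limma adjusted p = 0.349). Of the replication genes, Mcm2 was 5.85, 4.61 and 3.92 TPM against 3.55, 3.44 and 1.82, with no overlap, and Pcna was 61.4, 52.6 and 46.5 TPM against 51.1, 54.8 and 55.2, with overlap. Ccne1 was 10.8, 10.4 and 9.09 TPM against 10.2, 9.46 and 10.5 and its groups also overlapped. The 12 microglia markers summed to 1594 to 4012 TPM with KA and 612 to 733 without, and none of them passed either. Other lists moved the same way without overlap. Astrocyte markers summed to 2434 to 4035 TPM against 1420 to 1979, and oligodendrocyte precursor markers to 260 to 326 against 182 to 251. Endothelial markers summed to 308 to 395 TPM against 245 to 267, and leukocyte markers to 10.2 to 44.0 against 3.76 to 5.10. Mural and fibroblast markers summed to 168 to 180 TPM against 95.6 to 143, and ependymal and choroid plexus markers to 1535 to 2329 against 182 to 1125. Their part in the higher mitosis sum was not tested.

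In the second KA cohort, with counts, no cell cycle gene passed the test in any comparison. All 40 members were tested in each comparison. KA against untreated brain gave no member past the threshold with edgeR and none with DESeq2, and 1 had an unadjusted p under 0.05 (Ccne1, log2 fold change -0.29 ± 0.12). In this comparison 0.0558% of 23318 genes passed and 6.72% had an unadjusted p under 0.05. Apoe knockout with KA against KA gave none with either tool and 4 at an unadjusted p under 0.05 (Mcm2, Ccne1, Bub1b and Mcm4), where 0.112% and 9.33% of all genes passed. A2aR knockdown with KA against KA gave none with either tool and 1 at an unadjusted p under 0.05 (Mcm4), where 0.0386% and 9.25% of all genes passed. The mitosis sums ran from 29.3 to 49.3 TPM over the 13 libraries. The replication sums were 170 to 179 TPM in untreated, 159 to 165 in KA, 167 to 177 in Apoe knockout and 151 to 161 in A2aR knockdown libraries. The KA sums thus lay below those of the untreated and of the Apoe knockout libraries without overlap.

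Several mitosis genes rested on few reads there. Cdk1 had 0 to 75 reads per library, Ube2c 0 to 62, Ccnb1 0 to 83 and Ccnb2 0 to 105, while Mki67 had 116 to 496 and Pcna 3078 to 4165. Cdk1 was 0.371, 0 and 1.26 TPM in untreated, 0.143, 0.0274, 0.156 and 0.205 in KA, 0.13, 0.293 and 0.802 in Apoe knockout and 0.185, 1.42 and 0 in A2aR knockdown libraries. The libraries with no or few reads occur in several groups. Mki67 was 1.04, 1.01 and 1.2 TPM in untreated, 1.12, 1.57, 0.755 and 0.763 in KA, 1.28, 0.672 and 0.927 in Apoe knockout and 0.768, 0.904 and 0.332 in A2aR knockdown libraries. Top2a was 2.11, 1.56 and 2.03 TPM in untreated, 3.02, 2.22, 0.66 and 1.71 in KA, 2.89, 0.553 and 1.18 in Apoe knockout and 1.26, 0.578 and 1.35 in A2aR knockdown libraries. For Mki67 and Top2a the KA libraries overlapped every other group. All A2aR knockdown libraries lay below the untreated ones for both genes, and these groups were not tested against each other. Mcm2 was 4.0, 4.62 and 3.35 TPM in untreated, 3.3, 3.96, 4.27 and 3.53 in KA, 4.67, 5.34 and 4.89 in Apoe knockout and 5.23, 3.99 and 4.01 in A2aR knockdown libraries. For this gene the Apoe knockout libraries were all above the KA libraries. That difference was 0.44 ± 0.15 in log2 fold change (edgeR adjusted p = 0.399). Pcna was 78.2, 80 and 71.5 TPM in untreated, 62, 67.8, 65 and 71.6 in KA, 66.5, 77.8 and 72.6 in Apoe knockout and 69.4, 63.8 and 70.6 in A2aR knockdown libraries. Ccne1 was 17.2, 16.5 and 17.6 TPM in untreated, 15.4, 15.8, 14.5 and 15.1 in KA, 20.5, 16.5 and 14.4 in Apoe knockout and 15.3, 16.1 and 14.3 in A2aR knockdown libraries. For Ccne1 all KA libraries lay below the untreated ones. The microglia markers summed to 677 to 1157 TPM with KA and 527 to 614 in untreated brain of this cohort.

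In astrocytes the same genes were tested in 1 fit over 27 libraries, and all 40 passed the filter. Untreated Apoe knockout astrocytes had higher levels of most of them than untreated wild-type astrocytes. Here 33 members rose and none fell (limma, Benjamini-Hochberg), 11 of 14 replication and 22 of 26 mitosis genes, where 23.9% of 16161 genes were higher in the knockout. The median difference was 0.53 over the members and 0.05 over all genes tested. The mitosis sum was 1784 to 1793 TPM in knockout and 1212 to 1265 in wild-type libraries, and the replication sum 1027 to 1041 and 837 to 868.

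Among the replication genes Ccne1, Mcm6 and Tyms had the largest differences. Mcm6 was 94.8, 95.8 and 93.4 TPM in knockout libraries 1 to 3 and 59.2, 60.6 and 58.6 in wild-type libraries, higher by 0.66 ± 0.05 (limma adjusted p = 5.33e-10). Mcm2 was 53, 55.8 and 54.8 TPM against 32.5, 37.5 and 36.7, higher by 0.60 ± 0.08. Ccne1 was 16.9, 15.5 and 15.5 TPM against 8.56, 9.07 and 9.97, higher by 0.73 ± 0.08. Mcm5, Tyms (thymidylate synthase) and Rrm1 were higher by 0.57, 0.65 and 0.47. Pcna (219.7, 213 and 223 TPM against 232, 235 and 226) and Rrm2 (117, 120.3 and 117 TPM against 128, 124 and 128) did not pass, with differences of -0.08 ± 0.10 and -0.10 ± 0.08, although for both each knockout library lay below each wild-type library.

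Among mitosis genes, Mki67 was 57.9, 59.5 and 60.2 TPM in knockout and 35.7, 20.5 and 33.2 in wild-type libraries, and rose by 1.01 ± 0.25. Wild-type library 2 was low for this gene, as for the other long genes Cenpf and Cenpe. Ccnb2 was 74.7, 74.6 and 77 TPM against 43.2, 44.4 and 41.6, higher by 0.80 ± 0.05 (limma adjusted p = 3.05e-11). Foxm1, the transcription factor of the G2 and mitosis genes, was 38.6, 35.8 and 36.3 TPM against 20.1, 22.6 and 18.6, higher by 0.82 ± 0.08. Kif20a, a kinesin of cytokinesis, Bub1b, Birc5, Ccnb1, Cdc20 and Ube2c were higher by 0.82, 0.80, 0.68, 0.63, 0.57 and 0.55. Top2a (156, 154 and 152 TPM against 129, 114 and 117) had a difference of 0.36 ± 0.19 and Cdk1 (139.8, 129.9 and 139 TPM against 124, 132 and 118) one of 0.13 ± 0.13, and neither passed. Top2a did not overlap between the genotypes, while Cdk1 did.

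The cultures of the 2 genotypes also differed in markers of cell types. The 10 astrocyte markers summed to 2130 to 2390 TPM in wild-type and 482 to 496 in knockout libraries, and 9 of 9 tested were lower in the knockout. Gfap was 1080 to 1223 TPM in wild-type and 70.3 to 71.5 in knockout libraries, and Aqp4 254 to 292 and 129 to 138. The 10 mural and fibroblast markers summed to 7584 to 8291 and 6239 to 6349 TPM, and the 12 microglia markers to 508 to 558 and 427 to 459. Ddx3y, a Y-linked gene, was 14.9 to 19.1 TPM in wild-type and 31.3 to 33.5 in knockout libraries, and Xist 30.7 to 36.8 and 2.79 to 3.81 TPM. The part of cell composition and sex in the higher cell cycle genes was not tested.

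**Figure D3:**
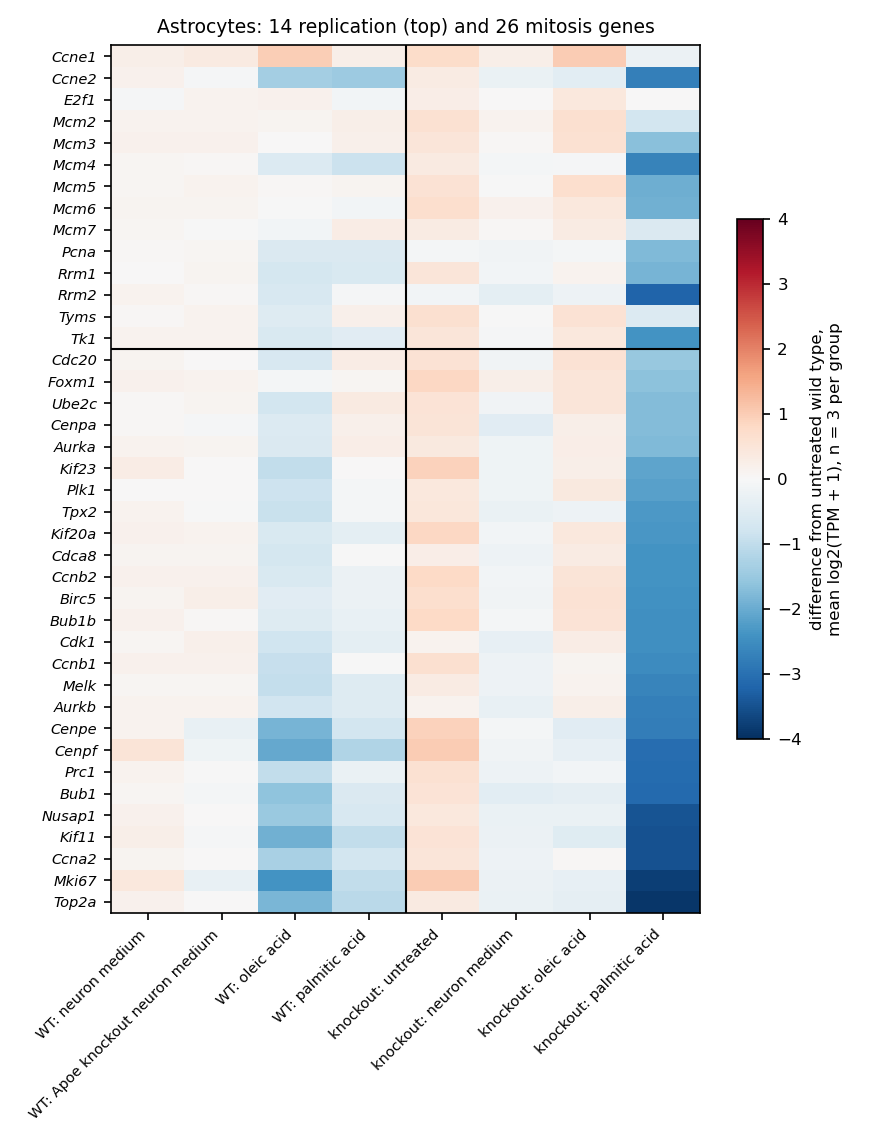
Difference of each of the 40 members from untreated wild-type astrocytes, as the difference of group means of log2(TPM + 1), for the 8 other astrocyte groups (3 libraries each); the horizontal line parts replication from mitosis genes and the vertical line wild type from knockout. Red is higher and blue lower; untreated knockout astrocytes are mostly red, wild-type astrocytes with oleic acid blue in the mitosis genes, and knockout astrocytes with palmitic acid blue apart from E2f1 and Ccne1, which lie near 0.

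Neuron medium moved no member past the test in wild-type astrocytes, whereas most members fell with it in knockout astrocytes. In wild-type astrocytes no member passed with limma (8 at an unadjusted p under 0.05, as were 6.38% of all genes, of which 0.0371% passed). With the medium 39 of 40 means were higher, and 17 members did not overlap in that direction, as did 8.66% of all genes. Medium of Apoe knockout neurons against neuron medium in wild-type astrocytes gave no member past the limma threshold and 4 at an unadjusted p under 0.05, where 1.42% and 12.9% of all genes passed. In knockout astrocytes 38 members fell with neuron medium, 12 replication and all 26 mitosis genes, and none rose, where 12.6% of all genes fell. Ccne2 and Pcna did not pass. The median member was -0.62 and the median gene 0.00. The mitosis sum was 1046 to 1072 TPM with and 1784 to 1793 without the medium, and the replication sum 791 to 807 and 1027 to 1041.

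In wild-type astrocytes Mki67 was 43.5, 32.5 and 42.6 TPM with neuron medium, 22.2, 29.2 and 19.6 with medium of Apoe knockout neurons and 35.7, 20.5 and 33.2 without either. Top2a was 135, 128 and 141 TPM with neuron medium, 124, 125 and 116 with that of knockout neurons and 129, 114 and 117 untreated. Cdk1 was 116, 146 and 138 TPM with neuron medium, 161, 127 and 148 with that of knockout neurons and 124, 132 and 118 untreated. The difference between the 2 media was -0.72 ± 0.25 for Mki67, -0.15 ± 0.19 for Top2a and 0.13 ± 0.13 for Cdk1, and that between neuron medium and no medium 0.42 ± 0.25, 0.17 ± 0.19 and 0.09 ± 0.13, none of them past the test. Pcna was 244, 241 and 238 TPM with neuron medium, 247, 250.2 and 236 with that of knockout neurons and 232, 235 and 226 untreated. Mcm2 was 38, 39.6 and 41 TPM with neuron medium, 37.6, 38.4 and 41.9 with that of knockout neurons and 32.5, 37.5 and 36.7 untreated. Ccne1 was 11, 10.8 and 10.9 TPM with neuron medium, 12.2, 12.5 and 11.7 with that of knockout neurons and 8.56, 9.07 and 9.97 untreated. Neuron medium differed from no medium by 0.15 ± 0.08 for Mcm2 and 0.23 ± 0.08 for Ccne1, and neither passed.

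Mki67 in knockout astrocytes was 20.6, 22.8 and 30.4 TPM with neuron medium and 57.9, 59.5 and 60.2 without, and fell by 1.25 ± 0.25. Ccnb2 was 37.5, 42.4 and 39 TPM against 74.7, 74.6 and 77, and fell by 0.91 ± 0.05 (limma adjusted p = 1.14e-11). Top2a was 94.9, 97.2 and 104 TPM against 156, 154 and 152, and fell by 0.64 ± 0.19. All 3 genes were lower in each treated than in each untreated library. Cdk1 was 119.6, 80.4 and 98 TPM against 139.8, 129.9 and 139, and fell by 0.47 ± 0.13. Kif20a, Cenpa (the centromeric histone), Bub1b, Birc5 and Ccnb1 changed by -0.93, -0.98, -0.88, -0.84 and -0.84. Of the replication genes Mcm2 was 41.1, 41.6 and 35.7 TPM against 53, 55.8 and 54.8, and fell by 0.46 ± 0.08. Ccne1 was 12.6, 10.6 and 10 TPM against 16.9, 15.5 and 15.5, and fell by 0.49 ± 0.08. Rrm1, Tyms, Mcm5 and Tk1 changed by -0.58, -0.68, -0.58 and -0.56, while Pcna was 208, 204 and 215 TPM against 219.7, 213 and 223 and did not pass. The 9 astrocyte markers tested all rose with this medium, their sum going to 1170 to 1267 TPM, and the microglia markers summed to 319 to 327 TPM. Apoe itself was 113 to 118 TPM with the medium. The part of these in the result was not tested.

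With oleic acid, wild-type astrocytes had lower mitosis genes, whereas most helicase genes did not pass the test and cyclin E1 rose. A total of 25 of 26 mitosis genes and 7 of 14 replication genes fell and Ccne1 rose (limma), where 28.6% of all genes fell and 31.2% rose. The median difference was -0.85 for mitosis, -0.32 for replication and 0.00 for all genes. The treated mean was 54.8% of the untreated mean for the median mitosis gene (15.9% to 93.3%) and 80.2% for the median replication gene (36.2% to 207%). The mitosis sum was 640 to 672 TPM against 1212 to 1265, and the replication sum 638 to 680 against 837 to 868.

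Ccne1 was 20.8, 19.7 and 16.7 TPM with oleic acid and 8.56, 9.07 and 9.97 without, and rose by 0.97 ± 0.08 (limma adjusted p = 3.38e-09). The related gene Ccne2, cyclin E2, moved the other way, at 6.43, 3.37 and 6.43 TPM against 16.7, 13.6 and 14.5, and fell by 1.35 ± 0.27. Of the helicase genes Mcm2, Mcm3, Mcm5, Mcm6 and Mcm7 had differences of 0.12, 0.01, 0.04, -0.02 and -0.12 and did not pass, and Mcm4 fell by 0.56 ± 0.12. Mcm2 was 36.6, 42.7 and 37.3 TPM against 32.5, 37.5 and 36.7, with overlap. Pcna was 175, 131 and 165 TPM against 232, 235 and 226, and fell by 0.57 ± 0.10. Rrm1 was 53.3, 52.6 and 52.8 TPM against 88.7, 87.9 and 83.3, and fell by 0.70 ± 0.05 (limma adjusted p = 4.81e-11). The other deoxynucleotide genes Rrm2, Tk1 and Tyms fell as well, by 0.64, 0.62 and 0.53.

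Mki67 was 4.88, 3.78 and 5.51 TPM with oleic acid and 35.7, 20.5 and 33.2 without, and fell by 2.40 ± 0.25. Top2a was 38.4, 24.1 and 38.9 TPM against 129, 114 and 117, and fell by 1.83 ± 0.19. Kif11, the kinesin that pushes spindle poles apart, was 4.87, 3.08 and 4.73 TPM against 20.1, 17 and 19.2, and fell by 1.94 ± 0.15. The groups of these 3 genes lay far apart, with no overlap. Ccna2 was 24.6, 18.8 and 22.9 TPM against 58.6, 54.9 and 54.2, and fell by 1.31 ± 0.10 (limma adjusted p = 4.34e-10). Cdk1 was 74.5, 65.2 and 76.8 TPM against 124, 132 and 118, and fell by 0.78 ± 0.13. Ccnb1, Melk (a mitotic kinase), Ube2c, Ccnb2, Aurkb (the kinase of the passenger complex) and Tpx2 changed by -0.94, -0.94, -0.75, -0.60, -0.77 and -0.88. Foxm1, at 18.1, 19.9 and 19.2 TPM against 20.1, 22.6 and 18.6, was the only mitosis member that did not pass. Other measures moved with oleic acid in these libraries. The astrocyte markers summed to 1085 to 1118 TPM against 2130 to 2390, the mural and fibroblast markers to 3800 to 4277 against 7584 to 8291 and the microglia markers to 939 to 1052 against 508 to 558. The Y-linked gene Ddx3y was 0.52 to 1.35 TPM with oleic acid, 14.9 to 19.1 without and 3.22 to 4.49 with palmitic acid. Mitochondrially encoded transcripts made up 2.96% to 3.98% of the TPM against 5.52% to 6.83%. Their part in the result was not tested.

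Palmitic acid in wild-type astrocytes gave a mixed picture. There were 8 members that rose and 21 that fell (limma), where 26.8% of all genes rose and 33.1% fell. After scaling by median ratios, or after removing a trend with transcript length, the split was 4 and 22: Mcm2, Mcm7, Ube2c and Cdc20 rose in each case, and Ccne1, Mcm3, Tyms and Aurka did not pass. Of the replication genes 5 rose (Ccne1, Mcm2, Mcm3, Mcm7 and Tyms) and 6 fell (Ccne2, Mcm4, Mcm6, Pcna, Rrm1 and Tk1). Of the mitosis genes 3 rose (Ube2c, Cdc20 and Aurka) and 15 fell. The median difference was -0.24 over the members and -0.08 over all genes, and the mitosis sum was 1032 to 1090 TPM against 1212 to 1265.

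Within the helicase, subunits moved apart. Mcm7 was 86.7, 78.6 and 79 TPM with palmitic acid and 58.6, 72.5 and 67.4 without, and rose by 0.30 ± 0.08. Mcm4 was 21.6, 21.2 and 18.1 TPM against 38.7, 35.5 and 38.9, and fell by 0.86 ± 0.12 (limma adjusted p = 1.77e-06). Mcm2 was 42.3, 43.1 and 41.6 TPM against 32.5, 37.5 and 36.7, and rose by 0.25 ± 0.08. None of these 3 subunits overlapped between the groups. Rrm1 was 58.5, 55.5 and 53.8 TPM against 88.7, 87.9 and 83.3, and fell by 0.62 ± 0.05, while its partner Rrm2 was 123, 126 and 117 TPM against 128, 124 and 128, with a difference of -0.05 ± 0.08 that did not pass. Pcna was 154, 155 and 156 TPM against 232, 235 and 226, and fell by 0.58 ± 0.10. Ccne2 was 5.46, 5.77 and 3.5 TPM against 16.7, 13.6 and 14.5, and fell by 1.45 ± 0.27, whereas Ccne1 was 10.5, 10.5 and 12 TPM against 8.56, 9.07 and 9.97, and rose by 0.24 ± 0.08.

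The mitosis genes were split as well. Ube2c was 117, 116 and 114 TPM with palmitic acid and 91.2, 92.2 and 86.8 without, and rose by 0.36 ± 0.06. Cdc20, which activates the same ubiquitin ligase, was 96.5, 98 and 95.9 TPM against 74.2, 81.8 and 80.4, and rose by 0.29 ± 0.08. Top2a was 56.6, 59.4 and 54.7 TPM against 129, 114 and 117, and fell by 1.06 ± 0.19. Mki67 was 15.4, 18.3 and 9.7 TPM against 35.7, 20.5 and 33.2, and fell by 1.00 ± 0.25. Cdk1 was 93.4, 95.7 and 93.8 TPM against 124, 132 and 118, and fell by 0.40 ± 0.13. Each of these 5 genes was without overlap between the groups. Aurkb, Ccna2, Melk, Kif11, Kif20a and Cenpf changed by -0.52, -0.73, -0.51, -0.99, -0.38 and -1.20, while Ccnb1, Plk1, Tpx2 and Cdca8 had differences of -0.01, -0.08, -0.07 and -0.02 and did not pass. Beside this, astrocyte markers summed to 656 to 804 TPM against 2130 to 2390, mural and fibroblast markers to 3265 to 3619 against 7584 to 8291 and microglia markers to 998 to 1118 against 508 to 558. Mitochondrially encoded transcripts made up 3.48% to 4.17% of the TPM against 5.52% to 6.83%. The part of these in the result was not tested.

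Oleic and palmitic acid, 2 fatty acids that differ in chain length and in the double bond of oleic acid, were compared directly. Their doses and times are not given, so that a match of dose cannot be checked, and the comparisons of each with untreated cells share the same untreated libraries. In wild-type astrocytes 29 members were lower and 3 higher with oleic than with palmitic acid, 25 of the lower ones being mitosis genes, where 25.8% of all genes were lower and 32.4% higher. Ube2c was 53.3, 57.1 and 49.4 TPM with oleic and 117, 116 and 114 with palmitic acid, a difference of -1.11 ± 0.06 (limma adjusted p = 4.25e-12). Cdc20 was 48.8, 58.3 and 45.5 TPM and 96.5, 98 and 95.9, a difference of -0.92 ± 0.08. Ccnb1, Aurka and Plk1 differed by -0.93, -0.82 and -0.74. The 3 members that were higher with oleic acid were Ccne1, Mcm4 and E2f1, by 0.74, 0.31 and 0.29. Astrocyte markers summed to 1085 to 1118 TPM with oleic and 656 to 804 with palmitic acid, and microglia markers to 939 to 1052 and 998 to 1118.

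In Apoe knockout astrocytes, 17 mitosis genes fell with oleic acid while most replication genes did not pass the test. In this comparison 1 member rose (Ccne1) and 21 fell (limma), where 21.7% of all genes rose and 20.1% fell. Ccne1 was 18.7, 19.7 and 19.8 TPM with oleic acid and 16.9, 15.5 and 15.5 without, and rose by 0.27 ± 0.08 (limma adjusted p = 0.0151). After removing the trend with transcript length none rose and 24 fell. Mki67 was 20.2, 25.1 and 23.8 TPM against 57.9, 59.5 and 60.2, and fell by 1.33 ± 0.25. Kif11 was 13.4, 13.5 and 12.4 TPM against 27.7, 26.7 and 28.2, and fell by 1.02 ± 0.15. Top2a was 102, 92.2 and 88.3 TPM against 156, 154 and 152, and fell by 0.71 ± 0.19. These 3 genes did not overlap between the groups. Cenpe and Cenpf (kinetochore proteins), Tpx2, Prc1 (which bundles the spindle midzone) and Ccnb1 changed by -1.37, -1.33, -0.66, -0.69 and -0.51. Cdk1 was 181, 147 and 136 TPM against 139.8, 129.9 and 139 and did not pass, with overlap. Mcm2 (48.6, 63.8 and 56.9 TPM) and Pcna (232, 212 and 207 TPM) did not pass either, with differences of 0.04 ± 0.08 and -0.01 ± 0.10. The microglia markers summed to 1183 to 1280 TPM with oleic acid and 427 to 459 without, and the mural and fibroblast markers to 4306 to 5010 against 6239 to 6349, while the astrocyte markers, 491 to 507 and 482 to 496, overlapped. Mitochondrially encoded transcripts made up 4.04% to 4.53% of the TPM against 6.41% to 6.64%. Their part in the result was not tested.

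All 40 members fell with palmitic acid in Apoe knockout astrocytes (limma). This was a comparison in which much else fell: 55.4% of all genes were lower, and the median gene changed by -0.47. The members went further, with a median of -3.13 for mitosis and -2.25 for replication genes. The median mitosis gene was at 10.3% of its untreated mean (1.36% to 23.0%) and the median replication gene at 20.2% (8.56% to 83.9%). The mitosis sum was 211 to 223 TPM against 1784 to 1793, and the replication sum 251 to 294 against 1027 to 1041. Scaling by median ratios moved the median of all genes by 0.23, to -0.24, and left 39 members lower, with a member median of -2.57 and E2f1 no longer past the threshold and of the other sign.

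Mki67 was 0.45, 2.16 and 1.41 TPM with palmitic acid and 57.9, 59.5 and 60.2 without, and fell by 4.76 ± 0.25. Top2a was 4.12, 10.6 and 8.19 TPM against 156, 154 and 152, and fell by 4.25 ± 0.19. Ccna2 was 3.08, 4.85 and 4.44 TPM against 82.1, 78.3 and 77.4, and fell by 3.99 ± 0.10. For these 3 genes the highest treated library was far below the lowest untreated library. Ccnb2 was 7.13, 7.06 and 7.77 TPM against 74.7, 74.6 and 77, and fell by 3.20 ± 0.05 (limma adjusted p = 2.6e-21). Bub1b was 3.14, 3.8 and 2.83 TPM against 38.1, 39.4 and 39.8, and fell by 3.24 ± 0.08. Birc5, whose promoter is among those shown above, was 9.16, 10.2 and 8.31 TPM against 90.2, 88.3 and 82.5, and fell by 3.11 ± 0.07. Cdk1 was 26.1, 20.1 and 20.3 TPM against 139.8, 129.9 and 139, and fell by 2.58 ± 0.13. Kif20a, Aurkb, Melk and Ccnb1 changed by -3.14, -2.86, -2.97 and -3.15.

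Among the replication genes Rrm2 was 10.6, 14.3 and 14.3 TPM with palmitic acid and 117, 120.3 and 117 without, and fell by 3.10 ± 0.08. Mcm6 was 14.3, 16.4 and 14 TPM against 94.8, 95.8 and 93.4, and fell by 2.59 ± 0.05 (limma adjusted p = 3.32e-20). Rrm1 was 21.7, 24.8 and 23.8 TPM against 123, 119 and 119.8, and fell by 2.32 ± 0.05. These 3 genes, whose promoters are shown above, did not overlap between the groups. Tk1, Mcm5 and Mcm3 changed by -2.89, -2.53 and -2.18. Mcm2 was 21.1, 20.3 and 21.4 TPM against 53, 55.8 and 54.8, and fell by 1.34 ± 0.08. Pcna was 55, 82.4 and 68.2 TPM against 219.7, 213 and 223, and fell by 1.68 ± 0.10. The smallest changes were those of E2f1 (23.3, 24.5 and 23.8 TPM against 28.8, 26.5 and 30), which fell by 0.24 ± 0.07 as deposited and changed by 0.08 after median-ratio scaling, of Mcm7 (-0.91) and of Ccne1 (7.89, 7.33 and 7.52 TPM against 16.9, 15.5 and 15.5), which fell by 0.98 ± 0.08. Against oleic acid in knockout astrocytes, palmitic acid had lower values of all 40 members, where 53.7% of all genes were higher with oleic acid. Ccnb2 was the member with the smallest p there, 61.1, 63.3 and 61.8 TPM with oleic and 7.13, 7.06 and 7.77 with palmitic acid, a difference of 2.92 ± 0.05. Scaling by median ratios left 39 of the 40.

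Other measures moved along in the knockout libraries with palmitic acid. The astrocyte markers summed to 69.4 to 86.7 TPM against 482 to 496, the mural and fibroblast markers to 940 to 1058 against 6239 to 6349, and the microglia markers to 108 to 119 against 427 to 459. Of the astrocyte markers Gfap was 2.08 to 2.56 TPM, Aqp4 2.17 to 4.16 and Sox9 23.7 to 28.6, and Gjb6 was listed at 0 in all 3 libraries, as it was with either acid in wild type. The microglia marker P2ry12 was also listed at 0. Mitochondrially encoded transcripts made up 1.51% to 2.94% of the TPM, against 6.41% to 6.64%. Ddx3y was 1.86 to 15.7 TPM against 31.3 to 33.5. Their part in the fall of the cell cycle genes was not tested.

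**Figure D4:**
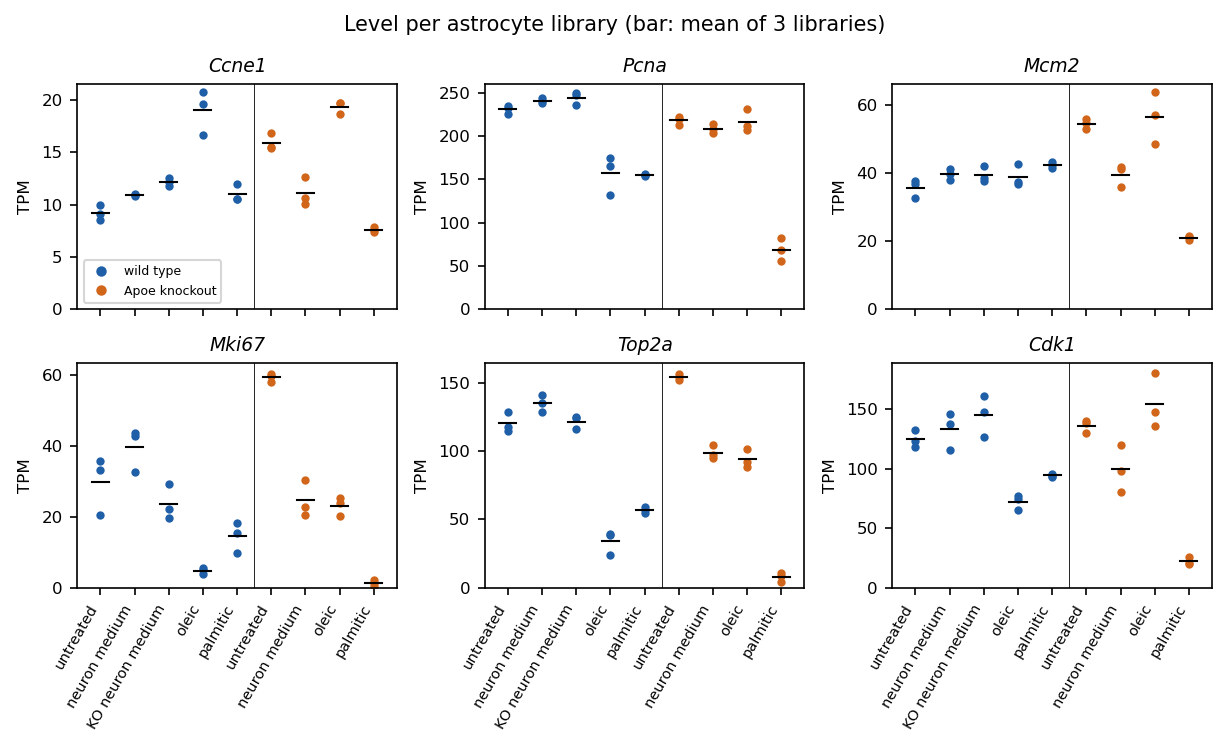
TPM of Ccne1, Pcna, Mcm2 (top) and Mki67, Top2a, Cdk1 (bottom) in each of the 27 astrocyte libraries, with the mean of the 3 libraries of a group as a bar; wild type is blue, Apoe knockout orange. Ccne1 is highest with oleic acid in both genotypes, whereas Mki67 and Top2a are low with oleic acid in wild type, and all 6 genes are at their lowest with palmitic acid in the knockout.

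The dependence of each treatment on the genotype was tested as an interaction. Each interaction uses the same untreated libraries of both genotypes, in which most members were already higher in the knockout. For neuron medium 37 members had a lower response in the knockout (limma; 6.95% of all genes) and none a higher one. Mki67, Top2a, Cdk1, Mcm2 and Ccne1 had interactions of -1.68 ± 0.36, -0.80 ± 0.27, -0.56 ± 0.18, -0.61 ± 0.12 and -0.72 ± 0.12. For oleic acid 23 members had a higher response in the knockout and 2 a lower one (Ccne1 and Mcm6), where 13.8% and 15.8% of all genes did. Mki67, Top2a and Cdk1 had interactions of 1.07 ± 0.36, 1.12 ± 0.27 and 0.96 ± 0.18, Pcna one of 0.56 ± 0.14 and Ccne1 one of -0.70 ± 0.12. For palmitic acid 39 members had a lower response in the knockout, where 43.2% of all genes did, and E2f1 did not pass. The median interaction was -2.58 over the members and -0.35 over all genes, and -2.24 and -0.06 after median-ratio scaling. Top2a had the interaction -3.18 ± 0.27, Mki67 -3.76 ± 0.36, Cdk1 -2.18 ± 0.18, Mcm2 -1.59 ± 0.12, Pcna -1.10 ± 0.14 and Ccne1 -1.22 ± 0.12.

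In astrocytes, cell cycle genes outside the 40 were described by the same test. Of all genes, 28.6% fell and 31.2% rose with oleic acid, and 33.1% fell and 26.8% rose with palmitic acid, in wild type. With palmitic acid in the knockout 55.4% of all genes fell, and 23.9% rose in untreated knockout against wild-type astrocytes. Of 32 other mitosis genes 28 fell and 1 rose with oleic acid in wild type, with Ect2, Nuf2, Lmnb1 and Racgap1 at -1.83, -1.73, -1.18 and -0.73, and 30 fell with palmitic acid in the knockout, with none up. Of 28 other replication genes 9 fell and 2 rose with oleic acid in wild type, with Hells, Pola1 and Gins1 at -1.68, -1.49 and -1.11, and all 28 fell with palmitic acid in the knockout. In untreated knockout against wild-type astrocytes 23 of the other mitosis genes rose and 1 fell, and 18 of the other replication genes rose and none fell. With palmitic acid in wild type 4 other mitosis genes rose and 18 fell, and 6 other replication genes rose (among them the licensing factor Cdt1 by 0.96 and Mcm10 by 0.73) and 7 fell.

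The D-type cyclins, G1 kinases and E2F or Myb regulators were split in direction (values are mean ± SD with n = 3 in each group, then the difference). The shares of all genes just given hold for these lists too, and a count near its share is no result about a list. Where no share is given for a direction, the count is a description only. Of 15 tested, 7 rose and 3 fell in untreated knockout against wild-type astrocytes: Ccnd1, cyclin D1, was higher (1467 ± 21.3 against 913 ± 32.2 TPM, difference 0.68 ± 0.06) and Cdk6, a kinase of the D-type cyclins, lower (8.23 ± 2.27 against 41.4 ± 4.5 TPM, difference -2.23 ± 0.18). With palmitic acid in wild type 5 rose and 5 fell, and Myc rose (138 ± 0.408 against 17.3 ± 2.22 TPM, difference 2.93 ± 0.12). With palmitic acid in the knockout 12 fell and 3 rose, Ccnd1 falling (740 ± 7.66 against 1467 ± 21.3 TPM, difference -0.99 ± 0.06) and Myc rising (116 ± 12.2 against 40.3 ± 1.91 TPM, difference 1.49 ± 0.12). The 16 inhibitors and brakes were divided too, and their falls with palmitic acid in the knockout were near the 55.4% of all genes. With palmitic acid in the knockout 7 rose and 8 fell: Cdkn1a, the p53 target p21, rose (879 ± 44.8 against 362 ± 2.94 TPM, difference 1.28 ± 0.06), as did the stress gene Sesn2 (89.7 ± 2.34 against 33.8 ± 0.255 TPM, difference 1.38 ± 0.07), while Cdkn2c fell (10.6 ± 0.717 against 46.2 ± 0.82 TPM, difference -2.03 ± 0.06). With palmitic acid in wild type 5 rose and 9 fell, with Gadd45a, a stress-induced growth arrest gene, up (345 ± 15.3 against 53.1 ± 5.46 TPM, difference 2.68 ± 0.13). With oleic acid in wild type 4 rose and 8 fell, and Cdkn1c, the inhibitor p57, fell (5.79 ± 1.27 against 50.9 ± 4.49 TPM, difference -2.95 ± 0.12). With neuron medium in the knockout 6 brakes rose and 3 fell, where 12.6% of all genes fell. Cdkn1c rose there (30.9 ± 1.32 against 4.75 ± 0.108 TPM, difference 2.47 ± 0.12).

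Across the 26 mitosis genes, the differences in astrocytes went with transcript length, with the fatty acids and in other comparisons. With oleic acid in wild type Pearson's r between the difference and the log of the length was -0.70 and Spearman's rho -0.54. With palmitic acid these were -0.72 and -0.66 in wild type and -0.69 and -0.61 in the knockout, and with oleic acid in the knockout -0.78 and -0.66. With neuron medium they were 0.69 and 0.57 in wild type and -0.48 and -0.32 in the knockout, between the media of Apoe knockout and other neurons -0.75 and -0.60, and between untreated knockout and wild-type astrocytes 0.50 and 0.39. In CNO brain they were -0.24 and -0.27. These correlations are across genes that share libraries, and genes are no independent replicates. In the libraries with fatty acids long transcripts as a whole were lower, relative to short ones, than in untreated libraries. The measure is the median log2 deviation of the longest genes minus that of the shortest. Each gene's deviation is taken from its mean over all astrocyte libraries. The measure was 0.20 to 0.29 in untreated wild-type libraries, -0.28 to -0.04 with oleic acid and -0.12 to 0.13 with palmitic acid. In knockout libraries it was 0.24 to 0.28 untreated, -0.29 to -0.10 with oleic acid and -0.82 to -0.21 with palmitic acid. When the trend of all genes with length was taken out, Mki67 (10061 bases) went from -2.40 to -2.04 with oleic acid in wild type and from -4.76 to -4.13 with palmitic acid in the knockout, and Cenpf (11130 bases) went from -4.06 to -3.39 in the latter. The 32 falls and the rise of Ccne1 with oleic acid in wild type and the 40 falls with palmitic acid in the knockout had the same counts after that step.

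**Figure D5:**
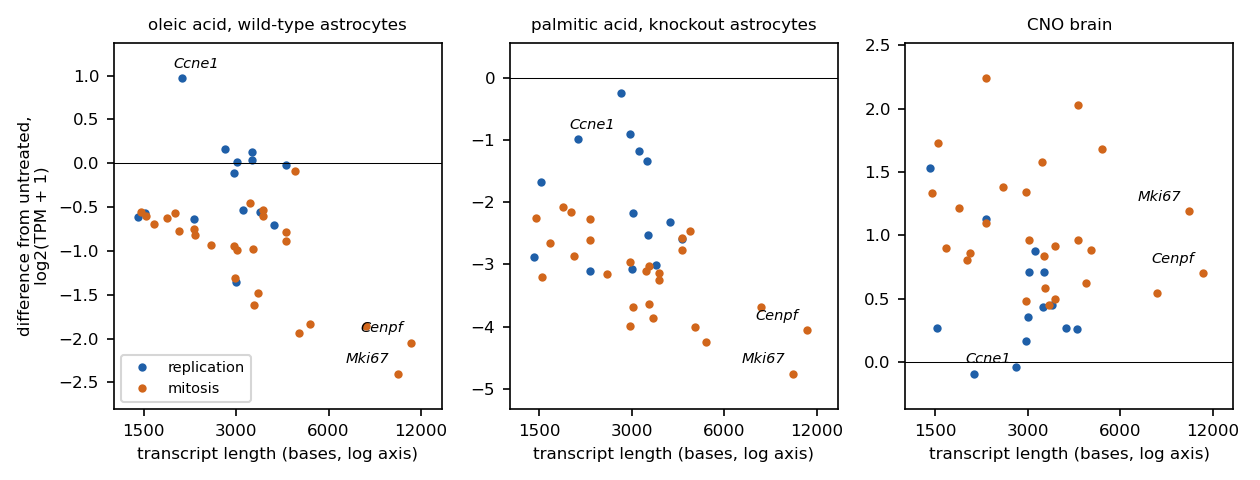
Difference from untreated in log2(TPM + 1) of each member against its longest protein-coding transcript (bases, log axis) for oleic acid in wild-type astrocytes, palmitic acid in knockout astrocytes and CNO brain; blue points are replication and orange points mitosis genes. The long genes Mki67 and Cenpf lie lowest or nearly so with the fatty acids and not in CNO brain, and the short gene Ccne1 lies at the top with oleic acid.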

How the data were processed

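RNA was sequenced from 25 brain and 27 primary astrocyte libraries. Per the labels' protocols, flash-frozen tissue was extracted with Trizol and libraries were made with an Illumina TruSeq kit. The submitters' processing notes name mm10, HISAT2, StringTie and RSEM, without their order or versions. The authors deposited TPM per gene in 4 tables, and for the second KA cohort also whole-number counts per gene. The depth behind the TPM of the other tables is unknown, and no interval for counting error could be given.

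Groups came from the sample titles. TPM were tested as log2(TPM + 1) with limma 3.58.1 (intensity trend, genes at or above 1 TPM in 3 libraries or more). Counts were tested with edgeR 4.0.16 (filterByExpr, TMM, quasi-likelihood test) in R 4.3.3. Benjamini-Hochberg adjustment ran over all genes tested, at 0.05, and both scripts were tested on simulated data. DESeq2 1.42.0, other filters, pseudocounts and scalings, a replicate block and single-library omissions were run as alternatives. CNO and untreated libraries of 1 number deviated together, with correlations of 0.119 to 0.244 over 3 pairs. Those of unlike numbers had correlations of -0.201 to -0.039 over 6 pairs. The labels state no pairing, so few pairs cannot establish one, and the main test leaves it out. Transcript lengths are those of the longest protein-coding transcript in GENCODE, and promoters are RefSeq windows. Per comparison up to 6 replication and 8 mitosis members were named, by smallest p, besides 6 described throughout, and up to 4 genes of each other list. The members and lists were chosen with earlier results of these data known.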

Additional observations from a re-analysis of the deposited data

Results flagged for a closer look

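In the 4 KA libraries of the second cohort, the highest value of Ccne2 (7.80 TPM) and that of Ccna2 (4.75 TPM) stood far from the other 3, the gap to the next library taking 0.896 and 0.897 of the whole range, past what 4 samples allow at the 95% level. The gap was in the TPM and not in the read counts of the same libraries, which were 527, 590, 454 and 510 for Ccne2 and 291, 243, 246 and 263 for Ccna2. Such a gap was looked for in 40 members, and chance gives it in about 1 in 20 groups.

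In astrocytes the response to each treatment differed between the genotypes by the interaction test in limma. These tests share the untreated libraries of both genotypes, in which most members were already higher in the knockout. With neuron medium 37 members did, among them Mki67 (-1.68), Top2a (-0.80), Cdk1 (-0.56), Mcm2 (-0.61) and Ccne1 (-0.72), each a lower response in the knockout. With oleic acid 25 members did, with higher responses in the knockout for Mki67 (1.07), Top2a (1.12), Cdk1 (0.96) and Pcna (0.56) and a lower one for Ccne1 (-0.70). With palmitic acid 39 members did, among them Mki67 (-3.76), Top2a (-3.18), Cdk1 (-2.18), Mcm2 (-1.59), Pcna (-1.10) and Ccne1 (-1.22), each lower in the knockout. The genotypes also differed in cell type markers and in Y-linked transcripts, whose part in these interactions was not tested.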

How the results depend on the processing

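The counts of members past the test moved by over 1.5 times in the CNO comparison only. There the count of 16 became 1 with no filter on low values (all 40 members tested) and 1 to 8 when 1 library was left out (1 without CNO library 2 or 3, 8 without CNO library 1, and 8, 6 and 3 without untreated library 1, 2 and 3), always higher in CNO. With median-ratio scaling it was 14, with a pseudocount of 0.1 it was 13 and after removal of the length trend 16. With the replicate block, which treats CNO and untreated libraries of 1 number as if they were pairs, 18 members rose. The block changed no other count by over 1.5 times: it gave 33 members for oleic acid in wild-type astrocytes, 28 for palmitic acid and 32 between them, 33 for genotype, 38, 22 and 40 for neuron medium, oleic and palmitic acid in the knockout, 40 between the acids there, 36, 24 and 39 for the interactions, and 0 where there were none before. Same-numbered libraries did not deviate together in the other tables (correlations of -0.401 to 0.158 in astrocytes). No paired analysis was possible for the A2aR knockdown because its libraries share fewer than 2 numbers with the KA libraries. Over all settings 208 counts stayed within 1.5 times and 7 did not, and among values of the members named by smallest p or described throughout 2468 kept their side of the threshold, 93 lost it and none of these changed direction. E2f1 with palmitic acid in the knockout, which is not among them, went from -0.24 to 0.08 with median-ratio scaling and lost the threshold. Named members that dropped out of the test in a setting are not in this tally. This happened in the CNO comparison when a CNO library was left out. Leaving out 1 library gave 31 to 33 members for genotype, 33 to 34 for oleic and 23 to 29 for palmitic acid in wild type, 19 to 22 for oleic acid and 40 for palmitic acid in the knockout. The removal of the length trend was chosen after seeing the data. Depth is known for the second KA cohort only, where Cdk1, Ube2c, Ccnb1 and Ccnb2 rest on at most 105 reads a library.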
